A study of Mus musculus with 6 samples.

Results

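*Hoxa*, *Hoxb* and *Hoxc* genes were examined in RNA-seq data of mouse chondrocytes. The genes were taken as a list of 29 members of these 3 gene clusters, named by symbol, and all 29 were found among the 41388 genes of the files. The samples were primary cultures of femoral head cartilage from 21-day-old male mice of strain B6/129, kept in culture for 2 days, with no other treatment. One group, *Postn*-/-, was homozygous for the *Postn* tm1Jmol null allele in every cell of the body, and the other, *wt*, was littermates with intact *Postn*, the gene of the matricellular protein periostin. The methods give 3 mice per genotype, and the labels do not tie a sample to a named animal. Each sample is bulk RNA of a plated culture, so fewer cells of a type and less RNA per cell cannot be told apart.

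*Hox* genes encode transcription factors that bind DNA through a homeodomain and give cells along the body and limb axes their position. Within a cluster the genes lie in the order in which they are used, with genes of low number, at the 3′ end, working towards the head and those of high number, at the 5′ end, towards the tail and the tip of the limb. In the limb skeleton the paralogues numbered 9 and 10 act in the upper segment, which holds the femur, those numbered 11 in the middle segment and those numbered 13 in the hand or foot.

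Total counts ran from 20587640 to 26572260 per sample, and 3 counts, taken as the floor, corresponded to 0.115 to 0.144 CPM (reads on a gene relative to all reads counted) after TMM normalization, which also adjusts for library composition. *Postn* itself measured 10.1, 10.3 and 6.90 CPM in *wt* replicates 1, 2 and 3, against 4.66, 4.27 and 5.67 CPM in the knockout, so reads remained on the gene in the knockout. All 13 chondrocyte markers passed the filter on low counts, and their summed level was 33617 to 44936 CPM in *Postn*-/- and 26283 to 40402 in *wt*, lowest in *wt* replicate 1. Of these markers 3 were higher in *Postn*-/- at an unadjusted p of at most 0.05 (*Col2a1*, *Col9a3* and *Col11a2*), a call that 3.95% of all tested genes also met, and none after adjustment. Markers of other cell types were also counted. Osteoblast markers (5 genes) summed to 981 to 1860 CPM in *Postn*-/- and 758 to 3394 in *wt*, and fibroblast and perichondrium markers (7 genes) to 1215 to 2944 in *Postn*-/- and 1533 to 4267 in *wt*. Macrophage and osteoclast markers (6 genes) summed to 366 to 478 CPM in *Postn*-/- and 323 to 438 in *wt*, and markers of the synovial lining and superficial zone (4 genes) to 269 to 885 and 192 to 467. Endothelial markers summed to at most 9.48 CPM, skeletal muscle markers to at most 17.3 and red blood cell markers to at most 0.769 in any sample. Of the other markers, *Cthrc1* of the fibroblast list (log2 fold change -0.78) and *Acta1* of the muscle list (-1.30) were lower in *Postn*-/- at an unadjusted p of at most 0.05, as were 2.35% of all tested genes, and neither after adjustment. The part of these differences in the *Hox* levels was not tested.

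The homeobox is the part of a *Hox* gene that encodes the DNA-binding homeodomain. It is shown for the pair of genes with the highest levels in these cells, *Hoxa10* and *Hoxc10*, and for the 5′ neighbour of *Hoxa10* in its cluster, *Hoxa11*. These 3 homeoboxes are 180 bases long and lie in exon 2, the last coding exon, at chr6:52232554-52232733 (*Hoxa10*, minus strand), chr15:102970848-102971027 (*Hoxc10*, plus strand) and chr6:52243402-52243581 (*Hoxa11*, minus strand) of genome build GRCm38. Each is read 5′ to 3′ from the reference genome. Capitals in *Hoxc10* and *Hoxa11* mark bases that differ from *Hoxa10*, and capitals in *Hoxa10* mark bases that differ from *Hoxc10*.
Hoxa10: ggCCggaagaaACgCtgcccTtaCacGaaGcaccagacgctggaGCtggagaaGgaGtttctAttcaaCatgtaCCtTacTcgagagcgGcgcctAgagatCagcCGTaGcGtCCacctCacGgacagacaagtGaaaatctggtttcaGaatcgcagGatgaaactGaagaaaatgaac
Hoxc10: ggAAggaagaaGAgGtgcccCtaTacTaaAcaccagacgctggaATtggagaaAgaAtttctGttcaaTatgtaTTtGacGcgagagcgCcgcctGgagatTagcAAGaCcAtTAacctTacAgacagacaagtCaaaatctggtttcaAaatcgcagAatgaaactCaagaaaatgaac
Hoxa11: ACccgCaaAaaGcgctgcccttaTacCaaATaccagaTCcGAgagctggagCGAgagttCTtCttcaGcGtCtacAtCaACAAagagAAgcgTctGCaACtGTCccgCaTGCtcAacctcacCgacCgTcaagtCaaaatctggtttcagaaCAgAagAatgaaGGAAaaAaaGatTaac

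*Hoxc10* has the same base as *Hoxa10* at 145 of the 180 positions (80.6%) and *Hoxa11* at 122 (67.8%). The longest run of identical bases shared with *Hoxa10* is 14 bases for *Hoxc10* and 17 for *Hoxa11*, well short of the 50-base reads. Among all 406 pairs of the 29 homeoboxes, 1 pair, *Hoxa6* and *Hoxb4*, shares a run of 50 bases or more (52 bases). None of the 50-base words in the *Hoxa10* transcripts occurs in transcripts of another gene, and 6.4% of those of *Hoxc10* do, all of them in *Hoxc5*, whose longest gene model overlaps it.

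Levels along the clusters were compared first. They are given per length, as TMM-normalized CPM per kilobase of exon, with the mean over all 6 samples and the lowest and highest sample. *Hoxc10* and *Hoxa10* stood above all other members. *Hoxc10* measured 50.5, 25.6 and 28.0 CPM per kilobase in *wt* replicates 1, 2 and 3, against 31.3, 33.7 and 31.7 in *Postn*-/- replicates 1, 2 and 3, an order kept for the values of every gene here. *Hoxa10* measured 24.1, 15.9 and 23.5 in *wt*, against 25.2, 17.9 and 22.1 in *Postn*-/-. Per kilobase, *Hoxc10* was above *Hoxa10* in 6 of 6 samples, by 1.56-fold in the means (33.5 against 21.4), without overlap of the ranges. This order depended on the division by exon length, 1909 bases for *Hoxc10* and 3270 for *Hoxa10*. In CPM alone the ranges overlapped and *Hoxa10* had the higher means, 71.0 in *Postn*-/- and 69.2 in *wt*, against 61.5 and 66.3 for *Hoxc10*. Which of these exon bases the cells use was not tested. Among the 14533 genes tested, 87.6% had a lower mean level per kilobase than *Hoxc10* and 82.0% a lower one than *Hoxa10*.

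**Figure D1:**
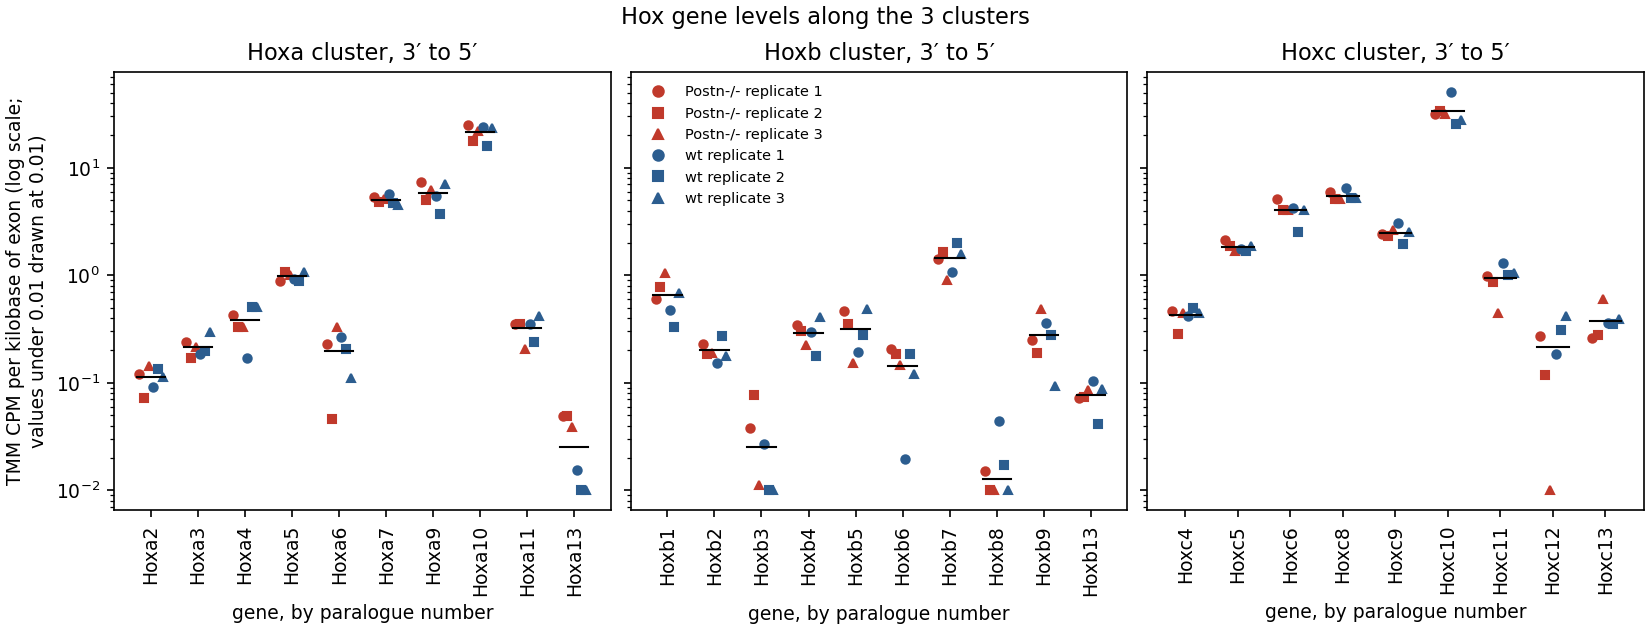
Level of each of the 29 genes in TMM CPM per kilobase of exon on a log axis, with genes ordered by number within each cluster; points are the 6 samples and black lines the mean of all 6. *Hoxa10* and *Hoxc10* are the highest genes of their clusters and *Hoxa11* and *Hoxc11*, next to them, lie far lower, while in the *Hoxb* cluster *Hoxb7* alone has a mean above 1.

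The next members were genes more 3′ in the clusters of this pair, and then *Hoxb7*. *Hoxa9* had a mean of 5.80 CPM per kilobase (3.74 to 7.36), 3.70-fold below *Hoxa10* and with no overlap of the ranges. Its exon length is 5580 bases. In CPM alone it averaged 34.5 in *Postn*-/- and 30.2 in *wt*, against 71.0 and 69.2 for *Hoxa10*. *Hoxc8* (5.52), *Hoxa7* (5.02), *Hoxc6* (4.01), *Hoxc9* (2.49), *Hoxc5* (1.84) and *Hoxb7* (1.43) followed. From *Hoxa9* downwards, the ranges of any 2 neighbours in this order overlapped. *Hoxa9* was above *Hoxc8* in 3 of 6 samples, whereas *Hoxa7* was above *Hoxc6* and *Hoxc6* above *Hoxc9* in 6 of 6. These 9 genes were the members with a mean above 1 CPM per kilobase, and without *Postn*-/- replicate 3 there were 10, with *Hoxc11* added.

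On the 5′ side the levels fell within 1 gene. *Hoxa11* measured 0.353, 0.237 and 0.419 CPM per kilobase in *wt*, against 0.351, 0.356 and 0.208 in *Postn*-/-. The ratio of *Hoxa10* to *Hoxa11* was 69.9 on average and between 50.2 and 106 in the 6 samples. *Hoxa11* is overlapped over 35.0% of its exon bases by the antisense gene *Hoxa11os*, where reads can be lost to ambiguity. Per kilobase of exon that no other gene covers, its level was 0.493. *Hoxc11* had a mean of 0.939 CPM per kilobase, and *Hoxc10* was on average 38.8 times its level, between 25.4 and 70.7 in the 6 samples. *Hoxc13* (0.373) and *Hoxc12* (0.217) lay lower still, and *Hoxa13*, a gene of the digits, had 0 to 3 counts in every sample, at or under the floor.

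The *Hoxb* cluster was low along its whole length. *Hoxb7* was its highest gene (1.43 CPM per kilobase, 0.895 to 1.99). *Hoxb1*, which is known for its role in the hindbrain and is the most 3′ gene of the cluster, came second with 0.653 (0.331 to 1.05). The 5 genes from *Hoxb2* to *Hoxb6* had means between 0.0254 (*Hoxb3*) and 0.319 (*Hoxb5*). *Hoxb9* was at 0.276 and *Hoxb13* at 0.0776, and *Hoxb8* had 0 to 3 counts per sample. *Hoxb3* and *Hoxb2* share 52.9% and 27.3% of their exon bases with the antisense gene *Hoxb3os*, so their levels are uncertain.

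Of the anterior genes of the other clusters, *Hoxc4* and those from *Hoxa2* to *Hoxa6* were also low, whereas *Hoxc5* (1.84) and *Hoxc6* (4.01) were above 1 CPM per kilobase. The *Hoxc5* gene model (chr15:102967443-103017429) runs across *Hoxc6*, *Hoxc8* and *Hoxc9* into *Hoxc10*, with which it shares 5.37% of its exon bases. Which part of this model its reads came from was not tested. *Hoxa5* had a mean of 0.977 CPM per kilobase and *Hoxc4* of 0.427. *Hoxa4* (0.380), *Hoxa3* (0.217), *Hoxa6* (0.197) and *Hoxa2* (0.112) lay lower, and *Hoxa3*, *Hoxa4* and *Hoxa2* share 27.1%, 16.0% and 15.9% of their exon bases with antisense or other genes. In raw counts *Hoxa2* had 3 to 5 reads per sample and *Hoxa6* had 1 to 6.

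Summed over the 29 genes, the level was 108, 69.2 and 85.2 CPM per kilobase in *wt*, against 92.8, 82.0 and 85.7 in *Postn*-/-, so the *wt* samples enclosed the *Postn*-/- ones. The *Hoxc* genes made up 56.3% of this sum on average (51.6 to 63.1% in the 6 samples), the *Hoxa* genes 39.7% (34.4 to 44.1%) and the *Hoxb* genes 4.05% (2.54 to 5.16%). *Hoxa10* and *Hoxc10* together held 62.6% (60.0 to 68.9%). Paralogue groups 6 to 8 held 18.9%, group 9 held 9.84%, groups 1 to 5 held 6.36% and groups 11 to 13 held 2.26%.

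The next question was whether the members differed between *Postn*-/- and *wt* chondrocytes. No member passed the test. Of the 29 genes, 15 passed the filter for testing (CPM above 1 in at least 2 samples): 5 of 10 *Hoxa*, 3 of 10 *Hoxb* and 7 of 9 *Hoxc* genes. A Benjamini-Hochberg adjusted p of at most 0.05 was reached by 0 of the 15 in the quasi-likelihood test of edgeR, and by 0.0138% of all tested genes. An unadjusted p of at most 0.05 was also reached by 0, and by 6.3% of all tested genes (3.95% with *Postn*-/- higher and 2.35% with it lower). DESeq2's Wald test and limma's voom fit, with and without surrogate variables, also called 0 at either threshold. The unadjusted count was 1 with the replicate number as a block (*Hoxb1*), without *wt* replicate 1 (*Hoxc10*) and without *wt* replicate 3 (*Hoxb1*). Log2 fold changes were taken as *Postn*-/- over *wt*. Their median in the members was 0.04, with 8 members above 0 and 7 below, and the median over all tested genes was 0.0042. Of the 15 log2 fold changes, 13 lay within 0.3 of 0, and for 12 members the 95% interval lay within 1 on the log2 scale in both directions. Adjusted p-values ran from 0.717 to 0.985.

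**Figure D2:**
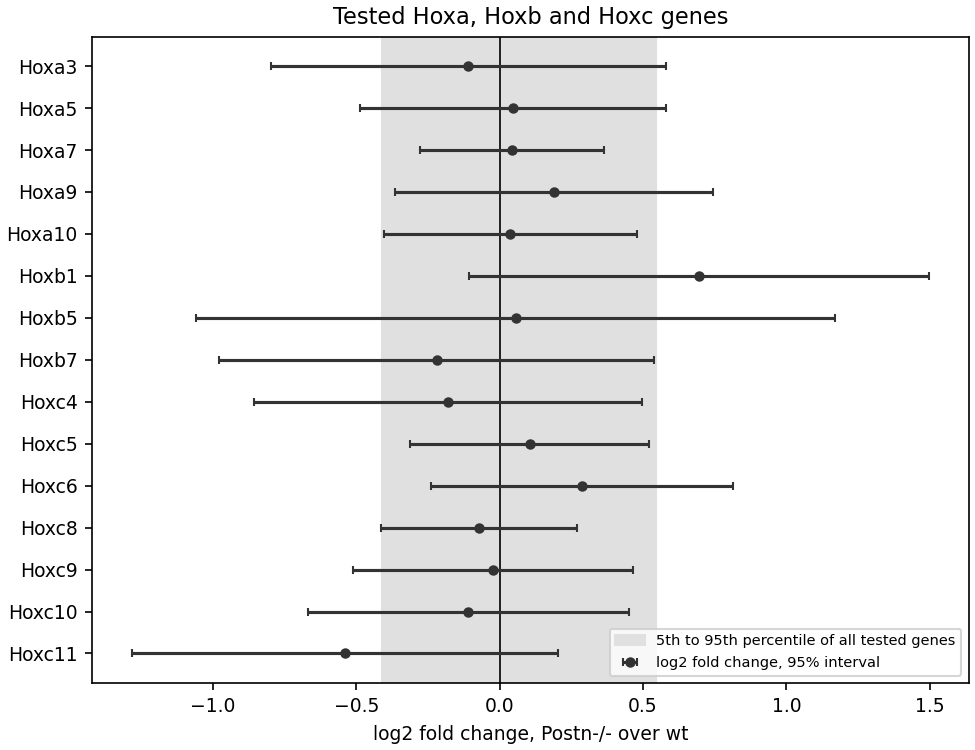
Log2 fold change, *Postn*-/- over *wt*, of the 15 tested genes with 95% intervals from edgeR's quasi-likelihood fit; the grey band spans the 5th to 95th percentile of all tested genes (-0.41 to 0.54). All 15 intervals include 0, and the points of *Hoxb1* (0.70) and *Hoxc11* (-0.54) lie outside the band.

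The means of *Hoxa10* differed between the genotypes by less than the SD of either group, and those of *Hoxc10* by less than the SD of the *wt* group but more than that of the *Postn*-/- group. *Hoxa10* (chr6:52231197-52240854) measured 78.8, 51.9 and 76.9 CPM in *wt*, against 82.3, 58.4 and 72.4 in *Postn*-/-. The means were 69.2 ± 15.0 and 71.0 ± 12.0 CPM (± SD, n = 3 each). Replicate 2 was the lowest of its group in both genotypes, and the groups overlapped. The log2 fold change was 0.04 (standard error 0.19, 95% interval -0.40 to 0.48, unadjusted p = 0.848, quasi-likelihood test of edgeR).

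*Hoxc10* (chr15:102966796-102971893), a gene of the hindlimb and the lumbar region, measured 96.4, 48.9 and 53.5 CPM in *wt*, against 59.8, 64.3 and 60.4 in *Postn*-/-. The 3 *Postn*-/- samples lay close together (SD 2.43), and *wt* replicate 1 stood far above the other *wt* samples (SD 26.2). The log2 fold change over all 6 samples was -0.11 (standard error 0.24, 95% interval -0.67 to 0.45, unadjusted p = 0.665, quasi-likelihood test of edgeR). The sign rested on this sample. Without *wt* replicate 1, the log2 fold change was 0.26 (unadjusted p = 0.0396, adjusted p = 0.833, quasi-likelihood test of edgeR), and over all 6 samples it was 0.09 and 0.02 in limma's voom fits without and with surrogate variables, which weight samples by quality. The summed level of the *Hoxc* genes was also highest there, at 68.3, 39.2 and 43.9 CPM per kilobase in *wt*, against 48.9, 48.6 and 46.7 in *Postn*-/-. The sample that was highest for *Hoxc10* also had the lowest summed chondrocyte markers, and the part of that in its *Hoxc10* level was not tested.

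**Figure D3:**
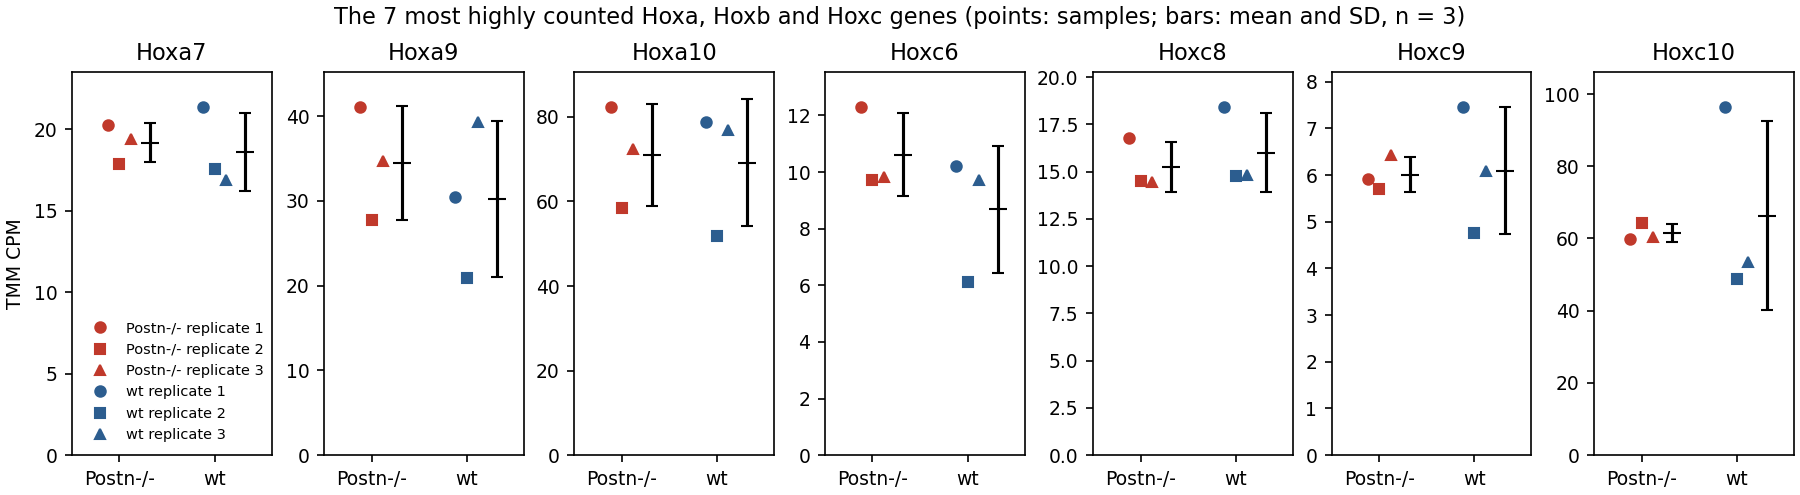
TMM CPM of the 7 *Hoxa*, *Hoxb* and *Hoxc* genes with the highest CPM, in each of the 3 *Postn*-/- and 3 *wt* samples, with the mean and SD of each group as bars and each axis starting at 0. The groups overlap for all 7 genes, and *wt* replicate 1 is the highest point for *Hoxc10* at 96.4 CPM.

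*Hoxa7* and *Hoxc8*, genes of the thoracic region, had the narrowest intervals of the 15. *Hoxa7* measured 21.4, 17.6 and 16.9 CPM in *wt*, against 20.3, 17.9 and 19.4 in *Postn*-/-, and its log2 fold change was 0.04 (95% interval -0.28 to 0.36). *Hoxc8* measured 18.4, 14.8 and 14.8 CPM in *wt*, against 16.8, 14.5 and 14.4, a log2 fold change of -0.07 (95% interval -0.41 to 0.27). *Hoxa7* shares 15.6% of its exon bases with the antisense gene *Hoxaas3*. For both genes, the groups overlapped and the intervals left no room for a change of 0.6 on the log2 scale. In all, 6 of the 15 tested members had intervals within 0.6 of 0.

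*Hoxa9* measured 30.5, 20.9 and 39.3 CPM in *wt*, against 41.1, 27.7 and 34.6 in *Postn*-/-. *Hoxc6*, a gene of the thoracic region, measured 10.2, 6.11 and 9.73 CPM in *wt*, against 12.3, 9.72 and 9.82 in *Postn*-/-. For both genes *wt* replicate 2 was the lowest sample and the groups overlapped. The log2 fold changes were 0.19 for *Hoxa9* (95% interval -0.37 to 0.74, unadjusted p = 0.452) and 0.29 for *Hoxc6* (95% interval -0.24 to 0.81, unadjusted p = 0.242, both in the quasi-likelihood test of edgeR). Without *wt* replicate 2 they were -0.02 and 0.09, and without *wt* replicate 3 they were 0.42 and 0.37. *Hoxc9* averaged 6.10 ± 1.35 CPM in *wt*, against 6.01 ± 0.381 in *Postn*-/- (SD, n = 3 each). *Hoxc5* averaged 5.47 ± 0.274 and 5.88 ± 0.700.

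Among the tested members, *Hoxb1* and *Hoxc11* had the largest fold changes, upwards and downwards. *Hoxb1* (chr11:96365752-96368256) measured 1.12, 0.769 and 1.58 CPM in *wt* (29, 17 and 33 reads), against 1.41, 1.79 and 2.43 in *Postn*-/- (35, 44 and 51 reads). *Postn*-/- replicate 1 lay below *wt* replicate 3, so the groups overlapped. The log2 fold change was 0.70 (standard error 0.35, 95% interval -0.11 to 1.50), with unadjusted p = 0.0803, adjusted p = 0.717 in the quasi-likelihood test of edgeR. With the replicate number as a block it was 0.71 (unadjusted p = 0.0472, adjusted p = 0.603, edgeR). Without *wt* replicate 3 it was 0.97 (unadjusted p = 0.0341, adjusted p = 0.724, edgeR), and without *Postn*-/- replicate 3 or *wt* replicate 2 it was 0.47 or 0.48 (unadjusted p = 0.260 and 0.223, edgeR).

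*Hoxc11* (chr15:102954427-102957708), the first gene 5′ of *Hoxc10*, measured 2.61, 2.04 and 2.11 CPM in *wt*, against 1.97, 1.75 and 0.905 in *Postn*-/-. The knockout samples were all lower than the lowest *wt* sample. It was the only tested member whose groups did not overlap, 6.67% of the 15. Of all tested genes, 13.6% were without overlap, 7.03% with *Postn*-/- higher and 6.57% with it lower. The gap between the groups was small, from 1.97 to 2.04 CPM. The log2 fold change was -0.54 (standard error 0.32, 95% interval -1.28 to 0.20; unadjusted p = 0.131, adjusted p = 0.720, edgeR), and without *Postn*-/- replicate 3 it was -0.28.

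The 5 remaining tested members had means under 3 CPM. *Hoxb7* (log2 fold change -0.22, standard error 0.33), *Hoxc4* (-0.18, 0.29), *Hoxa3* (-0.11, 0.30), *Hoxb5* (0.06, 0.48) and *Hoxa5* (0.05, 0.23) had unadjusted p-values of 0.522 or more with edgeR's quasi-likelihood test. The log2 fold change of *Hoxb5* changed sign in 5 of the 11 alternative fits that tested it, from -0.44 to 0.37. Of the 14 members that were not tested, *Hoxc12* had 5, 7 and 9 reads in *wt*, against 7, 3 and 0 in *Postn*-/-. *Hoxa13* had 1, 0 and 0 reads in *wt*, against 3, 3 and 2. With no filter on low counts, when all 29 were fitted, the lowest unadjusted p was 0.0573 (*Hoxb1*).

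Sample differences within a genotype ran through several members at once. *Wt* replicate 2 was the lowest of the 6 samples for 7 of the 15 tested members (46.7%), where it was the lowest for 17.8% of all tested genes. *Wt* replicate 1 was the highest for 5 of the 15 (33.3%), not far from its share of all tested genes (24.6%), and the lowest for 0 (26.1% of all tested genes). *Postn*-/- replicate 1 was the highest for 4 (26.7%, against 15.4% of all tested genes). *Postn*-/- replicate 3 was the lowest for 4 (26.7%, against 16.7% of all tested genes). *Wt* replicate 2 also had the highest summed osteoblast markers (3394 CPM) and fibroblast and perichondrium markers (4267 CPM), and the part of these in its *Hox* levels was not tested. The ratio of *Hoxa10* to *Hoxc10* per kilobase ranged from 0.477 in *wt* replicate 1 to 0.839 in *wt* replicate 3, and the 3 *Postn*-/- samples (0.804, 0.531 and 0.699) lay between.

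Genes that encode no protein were also read between the *Hox* genes. The annotation places 12 genes that encode no protein within the *Hoxa* span (chr6:52162417-52260880), 9 within the *Hoxb* span (chr11:96194316-96368256) and 7 within the *Hoxc* span (chr15:102921103-103036852), and 3, 1 and 0 of them passed the filter. The highest tested ones were the pseudogene *Gm11539* in the *Hoxb* span (3.89 CPM per kilobase, 28 to 66 reads) and the antisense gene *Gm15050* in the *Hoxa* span (2.77, 22 to 47 reads), with log2 fold changes of -0.35 and 0.29. *Hoxa11os* had 56, 23 and 39 reads in *wt*, against 41, 47 and 39 in *Postn*-/-, with a log2 fold change of 0.09. *Hotair*, the long noncoding RNA between *Hoxc11* and *Hoxc12*, had 1, 5 and 8 reads in *wt*, against 3, 11 and 7. The 5 miRNA genes in these spans had at most 2 reads in any sample.

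Genes that act with or on the *Hox* clusters were read in the same fit, and none of the 7 lists had a gene with an adjusted p of at most 0.05. In the fourth cluster, *Hoxd8* (4.71 CPM per kilobase), *Hoxd10* (3.49) and *Hoxd9* were the highest, and *Hoxd11* (0.0412), *Hoxd12* (0.0121) and *Hoxd13* (0.00897) were near 0, so the step between the genes numbered 10 and 11 was present there too. None of the 3 tested *Hoxd* genes had an unadjusted p of at most 0.05. *Evx2*, a homeobox gene that lies beside *Hoxd13*, had one, with a log2 fold change of 3.22 (standard error 0.42, adjusted p = 0.213, edgeR) and all *Postn*-/- samples above all *wt* samples. Of all tested genes, 6.3% met this threshold and 7.03% had all *Postn*-/- samples higher. The paper, whose fit included surrogate variables, lists *Evx2* among its transcripts that passed after adjustment.

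The TALE proteins are homeodomain partners that bind DNA together with *Hox* proteins. All 9 were tested, with *Pknox1* at 7.42, *Meis1* at 5.90, *Pknox2* at 2.51 and *Meis2* at 2.42 CPM per kilobase, and 1 had an unadjusted p of at most 0.05, a threshold that 6.3% of all tested genes met. This was *Pknox2*, with a log2 fold change of -0.42 (adjusted p = 0.717, edgeR).

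Of the transcription factors that set limb type, those of the hindlimb were above the one of the forelimb. *Pitx1* (1.26 CPM per kilobase), *Isl1* (0.944) and *Tbx4* (0.834) mark the hindlimb, and *Tbx5* (0.210) marks the forelimb. *Tbx5* had 12 to 24 reads per sample, and *Tbx4* had 26 to 134 and was highest, like *Hoxc10*, in *wt* replicate 1. Of 16 tested limb genes *Msx1* alone had an unadjusted p of at most 0.05, against 6.3% of all tested genes (log2 fold change 0.76, adjusted p = 0.717, edgeR).

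**Figure D4:**
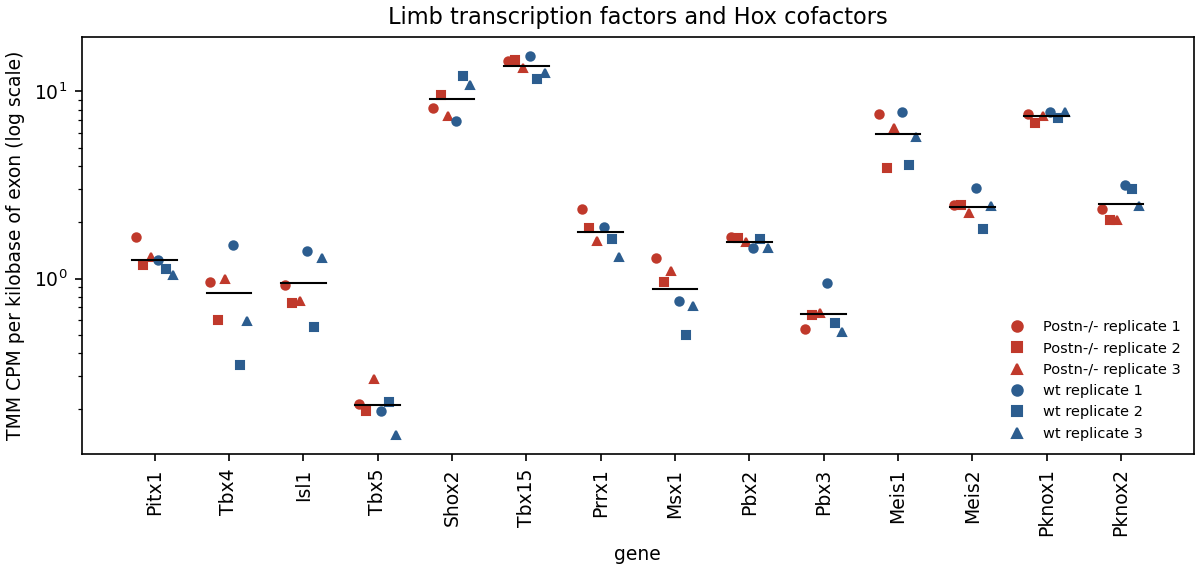
Levels in TMM CPM per kilobase of exon, on a log axis, of limb transcription factors and of TALE partners of *Hox* proteins; points are the 6 samples and lines their mean. *Tbx5* (0.210) lies below *Pitx1* (1.26), *Isl1* (0.944) and *Tbx4* (0.834).

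Among chromatin regulators that keep *Hox* genes silent or active, 31 of 32 Polycomb genes and 17 of 17 Trithorax and demethylase genes were tested. At an unadjusted p of at most 0.05, 1 Polycomb gene was called (*Phf1*, log2 fold change 0.64) and 0 of the second list, against 6.3% of all tested genes. Retinoic acid is a signal that opens the clusters from their 3′ end, and of its 11 tested genes *Rara*, a receptor, was called at this threshold (log2 fold change 0.54). Of 9 tested cluster regulators *Gmnn* was called (log2 fold change -0.76). After adjustment, p was 0.717 for *Phf1*, *Rara* and *Gmnn* alike (edgeR). *Cdx1*, *Cdx2* and *Cdx4*, which regulate *Hox* genes in the embryo's trunk, were below 0.1 CPM per kilobase.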

How the data were processed

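Primary chondrocytes of 3 *Postn*-/- and 3 *wt* mice were sequenced as 50-base single ends after cDNA amplification with a SMARTer kit. The authors aligned reads to Ensembl release 76 with STAR 2.0.4b and used featureCounts 1.4.5 to count reads with a single alignment and a single possible gene, and they deposited raw counts. Whether strand was used is not given in the sources used here. The submitters' notes name mm9, but 40233 of 40340 identifiers matched to GENCODE M21 (99.7%) overlapped their GRCm38 position on the same strand, so coordinates are GRCm38. The deposited CPM is the count scaled to the library's total and the deposited RPKM is that value per kilobase of exon. Both were checked against the counts in all 41388 genes and were not used in tests.

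The filter required a CPM above 1 in 2 or more samples and removed 355 rRNA genes. The comparison of genotypes used edgeR 4.0.16 in R 4.3.3 with TMM normalization, the quasi-likelihood test and Benjamini-Hochberg adjustment over 14533 genes, with no covariate, and was tested on simulated data. Levels are TMM-normalized CPM, also per kilobase of exon. Alternatives were DESeq2 1.42.0, its size factors, upper quartile normalization, voomWithQualityWeights in limma 3.58.1 without and with 2 surrogate variables (sva 3.50.0), other filters, the replicate block and leaving out each sample. The members and lists were chosen with earlier results of these data known. All members were named, and, of each list, its defining genes and those with an unadjusted p of at most 0.05; *Hoxd8*, *Pknox1*, *Hotair*, *Hoxa11os*, *Gm11539* and *Gm15050* were also named, the last 2 and *Pknox1* after their values were seen. Exon overlap came from the exons in the files, shared 50-base words and homeoboxes from the GENCODE transcripts and the GRCm38 sequence.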

Additional observations from a re-analysis of the deposited data

How the results depend on the processing

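The count of members with an adjusted p of at most 0.05 was 0 under all 14 alternatives run. The count at an unadjusted p of at most 0.05 was 0 with the other normalizations, tests and filters, 1 with the replicate block (*Hoxb1*, unadjusted p = 0.0472, adjusted p = 0.603 in edgeR) and between 0 and 1 when each sample was left out, with *Hoxc10* called without *wt* replicate 1 and *Hoxb1* without *wt* replicate 3. Same-numbered samples correlated at 0.0824, 0.155 and 0.143 in their deviations from the group means, not all over 0.1, so the numbers were not taken to pair the samples, and whether they mark a shared litter or batch is not given in the labels. Each sample correlated best with its own number, and the block moved the unadjusted calls over all genes from 916 to 1188 and the adjusted ones from 2 to 1. Over all genes the adjusted calls ran from 0 to 10 and the unadjusted ones from 425 to 1997 across alternatives. The share of the summed level held by *Hoxa10* and *Hoxc10* was between 61.4 and 63.2% when each sample was left out and 62.8% on exon bases that no other gene covers, alternatives that were added after seeing the data. Under the same alternatives the count of members with a mean above 1 CPM per kilobase was 9 or, without *Postn*-/- replicate 3, 10. Genes under about 1 CPM rest on few reads, and 3 samples a group leave intervals too wide to tell small changes from none.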
